A study of Mus musculus with 16 samples.

Results

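The airways and alveoli of a fetus are filled with liquid that the lung epithelium secretes, and this liquid has to be absorbed at birth. Absorption runs on sodium: the epithelial sodium channel (ENaC) lets sodium into the cell from the airspace, the sodium pump (Na,K-ATPase) moves it out on the blood side, and water follows, in part through aquaporins. Before birth the flow runs the other way, driven by chloride that enters the cell through the cotransporter NKCC1 and leaves through the chloride channel CFTR. The 9 genes described here stand for these steps: Scnn1a, Scnn1b and Scnn1g, which encode the alpha, beta and gamma subunits of ENaC; Nedd4l, a ubiquitin ligase that removes ENaC from the cell surface; Atp1b1, the beta 1 subunit of the sodium pump; the water channels Aqp1 and Aqp4; Cftr; and Slc12a2, which encodes NKCC1. They were taken by symbol from the 25054 gene entries of the count table, each symbol matching 1 entry, and followed through all 16 libraries.

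Man1a2 encodes a Golgi mannosidase that trims the sugar chains of glycoproteins, and the null allele lacks exon 2. Heterozygous parents on the C57BL/6J background were treated, not the pups. Sire and dam received N-acetyl cysteine (NAC, an antioxidant and glutathione precursor; at most 1 g per kg body weight) or plain water, and exposure covered the 1 week ahead of mating and the pregnancy. Lung and liver of 4 kinds of newborn were sequenced under each treatment: live wild-type (WT), live heterozygous (Man1a2+/-), dead heterozygous and dead null (Man1a2-/-). Each library was made from RNA pooled over 3 experiments (2 for dead heterozygous pups), with 1 library per kind of pup, treatment and tissue label. Pups were watched for 24 h with checks every 8 h; dead pups were harvested when found and live pups were killed at the end of the watch, so survival and age at harvest cannot be told apart.

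The tissue labels and the tissue markers of the libraries disagreed. Libraries were therefore described by content: lung-content where the surfactant gene Sftpc reached 1000 raw CPM (counts scaled to a library total of 1e+06) and the albumin gene Alb stayed under 1000, liver-content where Alb reached 50000, and mixed otherwise. By this rule 7 libraries were lung-content, 8 liver-content and 1 mixed. The lung-content libraries were the live WT and live heterozygous NAC libraries labelled lung, their placebo counterparts labelled liver, the dead heterozygous NAC library labelled liver and its placebo counterpart labelled lung, and the null placebo library labelled liver. The mixed library was the null placebo library labelled lung, which had 5552 Sftpc CPM together with 9280 Alb CPM. Of the 7 lung-content libraries 4 thus carry a liver label. The labels for genotype, survival and treatment of the same libraries were used as given, and no value here checks them, so each comparison below is one between libraries as labelled. Both null NAC libraries were liver-content, so no null NAC library of lung content could be compared. Alveolar type 2 markers summed to between 8703 and 16418 CPM in lung-content libraries and to between 364 and 566 in liver-content ones, and the 12 hepatocyte markers to between 21.8 and 206 and between 141050 and 236010. These lists hold Sftpc and Alb, the genes that set the content, so their sums are no separate check of it. Lung-content libraries held 7236865 to 11808823 counts and liver-content ones 14115802 to 16107749. The ribosomal symbol Rn45s took 4.05% to 26.2% of the counts in lung-content libraries and 0.845% to 6.29% in liver-content ones. The live heterozygous NAC library of lung content had both the fewest counts and the highest Rn45s share. The targeted gene, Man1a2, had 41.4 to 75.4 CPM in the lung-content libraries and 60.4 in the null placebo one; counts are per gene, so reads from the deleted exon cannot be separated. All levels below are CPM scaled by trimmed mean of M-values (TMM) over the 16 libraries.

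The ENaC genes lie on 2 chromosomes of the mouse genome (GRCm38 coordinates here and below). Scnn1a spans chr6:125320659-125344943, while Scnn1g (chr7:121734479-121768475) and Scnn1b (chr7:121865038-121918514) lie one after the other on the plus strand of chromosome 7. Cftr spans chr6:18170687-18322768, Aqp1 chr6:55336432-55348555 and Atp1b1 chr1:164437109-164458355 on the minus strand. Exons of Atp1b1 overlap 575 bases of Nme7 exons on the other strand, Nedd4l 277 bases of A330084C13Rik and Cftr 129 bases of Gm15592; whether counting used strand is not given in the sources used here, so some reads could belong to the partner gene. RefSeq promoter sequences matched 5 of the 9 genes. The 250 bases ahead of the RefSeq start are printed for 4 of them, since Scnn1g and Scnn1b share a chromosome and strand and of the pair only Scnn1b passed the test for NAC (the difference between them was not tested), and Atp1b1 and Cftr were the members that rose and fell most. Each is given on the strand of its gene.
Scnn1g (chr7:121734229-121734478): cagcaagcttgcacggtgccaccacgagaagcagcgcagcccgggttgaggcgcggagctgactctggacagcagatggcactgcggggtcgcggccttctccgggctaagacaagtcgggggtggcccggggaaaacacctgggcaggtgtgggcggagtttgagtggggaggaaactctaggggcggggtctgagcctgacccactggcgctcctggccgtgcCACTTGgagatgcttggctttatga
Scnn1b (chr7:121864788-121865037): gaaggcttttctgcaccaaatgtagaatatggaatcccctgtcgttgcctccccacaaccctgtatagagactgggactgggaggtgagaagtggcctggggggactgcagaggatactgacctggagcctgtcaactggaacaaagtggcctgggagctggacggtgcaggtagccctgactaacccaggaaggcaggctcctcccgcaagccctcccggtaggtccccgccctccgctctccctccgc
Atp1b1 (chr1:164458356-164458605, minus strand): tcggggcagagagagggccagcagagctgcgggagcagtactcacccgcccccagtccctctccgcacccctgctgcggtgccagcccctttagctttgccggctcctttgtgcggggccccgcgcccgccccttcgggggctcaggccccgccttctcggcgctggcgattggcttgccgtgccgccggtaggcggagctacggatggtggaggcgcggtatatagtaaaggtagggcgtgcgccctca
Cftr (chr6:18170437-18170686): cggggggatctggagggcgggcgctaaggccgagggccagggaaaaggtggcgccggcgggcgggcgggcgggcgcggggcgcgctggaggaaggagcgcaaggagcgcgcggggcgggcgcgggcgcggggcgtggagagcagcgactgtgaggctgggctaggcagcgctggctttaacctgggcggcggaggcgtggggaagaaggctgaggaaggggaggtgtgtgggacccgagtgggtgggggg

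Capitals mark the match to any of 3 short motifs that were searched on both strands: CAAGTG, the core bound by the lung factor NKX2-1; TGTTCT, a half-site of the glucocorticoid receptor; and the TATA box TATAAA. The match, CACTTG in Scnn1g, is CAAGTG read on the other strand, and it begins 25 bases ahead of the start. Of 32851 mouse promoter windows of the same length, 11.6% held CAAGTG, 16.1% TGTTCT and 12.4% TATAAA, and a match is a description of these letters, not a binding site. No window held an annotated exon. The windows were GC-rich, from 60.8% in Scnn1b to 76.4% in Cftr, beside a median of 52.4% over all windows.

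All 9 genes were read in lung-content libraries, and most were near-absent or low in liver-content ones. Scnn1a had 219.6 to 617 CPM in the 7 lung-content libraries (median 384) and 2.72 to 7.50 in the 8 liver-content ones. Scnn1g had 112 to 218 CPM in lung-content libraries and no more than 2 counts in any liver-content library, with 0 counts in 4 of them. Scnn1b had 26.9 to 69.4 CPM against at most 4 counts. The groups did not overlap for any of the 3 subunits. Summed over libraries, the lung-content level of Scnn1g was 2075 times the liver-content one (exact 95% interval 1007 to 5163, from 12315 against 7 counts; intervals of this kind cover counting error only). For Scnn1b the ratio was 389.6 (232 to 713, 4624 against 14 counts).

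The chloride pathway was likewise of lung content. Cftr had 11.3 to 29 CPM in lung-content libraries and at most 3 counts in liver-content ones, a summed ratio of 172 (exact 95% interval 100.5 to 324, 1898 against 13 counts). Slc12a2, which loads chloride into the cell, had 188 to 287 CPM against 7.47 to 11.9. Neither gene overlapped between contents.

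The pump and water genes were present in both contents at different levels. Atp1b1 had 264 to 973 CPM in lung-content libraries and 68.7 to 123 in liver-content ones, without overlap. Aqp1, a water channel of endothelium and red cells, had 557 to 1407 CPM against 251 to 512, also without overlap. Nedd4l overlapped, with 72.7 to 201 CPM against 38.6 to 105. In all, 7 of the 9 genes were at least 2-fold higher in mean without overlap, where 20.1% of the 14078 genes compared were higher in this way and 41.9% differed in either direction. The content groups were set by measured markers, so this is a description without a test. In bulk tissue, fewer cells of a type and less RNA per cell cannot be told apart.

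**Figure D1:**
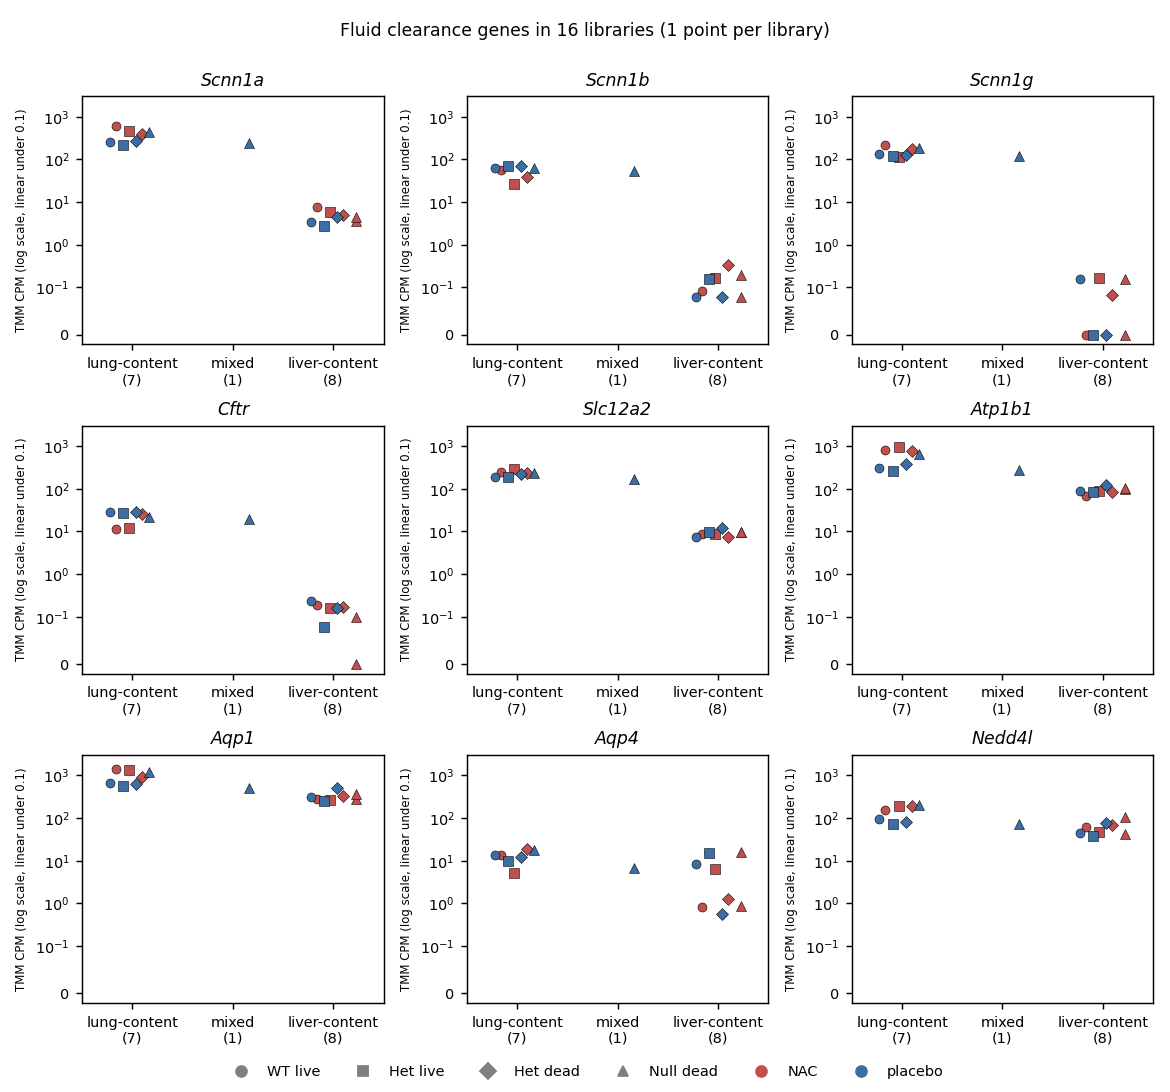
Level of each gene in TMM CPM (log axis, linear under 0.1) in each of the 16 libraries, grouped by content, with symbols for the kind of pup and colours for treatment. The 3 ENaC genes, Cftr and Slc12a2 separate widely by content, and Aqp4 spreads from 0.557 to 15.9 CPM within the liver-content libraries.

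Aqp4, a water channel of alveolar and airway epithelium, was the member that content ordered least. It had 5.15 to 18.5 CPM in lung-content libraries. In liver-content libraries it was at 15.9 in the null NAC library labelled liver, 15.0 in live heterozygous placebo, 8.58 in live WT placebo and 6.39 in live heterozygous NAC pups. The other 4 libraries had 0.557 to 1.26 CPM: dead heterozygous placebo, live WT NAC, the null NAC library labelled lung and dead heterozygous NAC. The high libraries shared neither a treatment nor a kind of pup. They were set apart by more than Aqp4. The 16 glucocorticoid-responsive genes read below summed to 2066 to 2588 CPM in them and to 4759 to 8400 in the other liver-content libraries. Whether this bears on Aqp4 was not tested. The 2 null NAC libraries, which carry the same genotype and treatment, stood at 15.9 and 0.891 CPM.

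The mixed null placebo library had the ENaC genes at lung-like levels, with 241 CPM of Scnn1a, 54.6 of Scnn1b and 122 of Scnn1g, all within the lung-content range. Set beside it, the lung-content null placebo library, which carries the same genotype and treatment, was 2.81 times higher for Nedd4l, 2.61 times for Aqp4, 2.33 times for Aqp1, 2.32 times for Atp1b1 and 1.81 times for Scnn1a. Cftr (1.08 times), Scnn1b (1.15 times) and Slc12a2 (1.38 times) were closer. The part that liver RNA played in the mixed library was not tested.

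The study asked whether NAC changes the newborn lung, and this was addressed over the lung-content libraries with a fit that compared NAC with placebo within live WT, live heterozygous and dead heterozygous pups. NAC-treated libraries had more transcript of the sodium pump subunit, of ENaC alpha, of Aqp1 and of the ENaC regulator Nedd4l, and less of ENaC beta and of Cftr. In the edgeR quasi-likelihood fit, which took the kind of pup as a block, 6 of the 9 genes had a Benjamini-Hochberg adjusted p-value under 0.05 (4 higher and 2 lower), where 26.4% of the 13659 genes tested did (14.4% higher and 11.9% lower). Of the genes called, 54.7% were higher, against 22.5% with scaling by library size alone, which moved the median log2 difference of all genes by -0.28; the same directions of the 6 members passed under it. With either one of the live heterozygous libraries left out, 3 members passed as higher and 0 as lower, and the count of genes fell from 3601 to as few as 1040 (live heterozygous placebo library left out). With either one of the live WT libraries left out, 4 were higher and 1 lower. Each pup group has 1 library per treatment, so the p-values measure how evenly the 3 pairs of libraries moved and not the spread between litters. The null placebo library is alone in its group and adds nothing to this contrast.

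Atp1b1, whose subunit carries the pump to the cell surface, had 823, 973 and 784 CPM with NAC in live WT, live heterozygous and dead heterozygous pups, in that order here and below. With placebo it had 308, 264 and 381 CPM. The lowest NAC library was above the highest of these 3 placebo libraries, and the lung-content null placebo library lay between at 647. The fitted log2 difference was 1.45 (SE 0.18, adjusted p = 0.00161, higher in 3 of 3 pairs), a 2.73-fold rise and the largest among the 9 genes. It kept its call in the 17 alternatives run, whose log2 differences ranged from 1.17 to 1.65.

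Scnn1a, for the alpha subunit without which ENaC conducts poorly, had 617, 470 and 384 CPM with NAC and 258, 219.6 and 264 with placebo. The lowest NAC library was again above the highest of these paired placebo libraries. The lung-content null placebo library, at 436, lay among the NAC-treated ones, so over all placebo libraries the groups overlapped. The share of all genes that separate in this way was not counted. The log2 difference was 0.97 (SE 0.17, adjusted p = 0.00592 in the edgeR fit). Scnn1b went the other way, with 55.0, 26.9 and 38.4 CPM with NAC and 63.0, 69.4 and 69.1 with placebo. It fell by 0.79 on the log2 scale (SE 0.22, adjusted p = 0.0285), but leaving out the live heterozygous pair took it to -0.52 with an adjusted p of 0.16 (edgeR).

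Scnn1g had 218, 112 and 176 CPM with NAC and 131, 121 and 123 with placebo. It was higher in live WT and dead heterozygous pups and 0.926 times as high in live heterozygous pups, and it did not pass the edgeR test (log2 difference 0.38, SE 0.18, adjusted p = 0.147). The null placebo library had 189.5 CPM of Scnn1g, above each of the other placebo libraries. Scnn1g and Scnn1b, on one strand of chromosome 7, differed in direction in the live WT and the dead heterozygous pair.

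The proportions of the 3 subunits are given as a description. Per kb of annotated exon, Scnn1a made up 61.5%, 70.5% and 55.9% of the summed ENaC level with NAC and 48.1%, 44.3% and 48.6% with placebo. Scnn1b made up 8.60%, 6.32% and 8.78% with NAC and 18.4%, 22% and 20.0% with placebo. The ratio of alpha to beta per kb was accordingly 7.15, 11.2 and 6.37 with NAC and 2.61, 2.02 and 2.44 with placebo. The lung-content null placebo library, with a ratio of 4.44 and an alpha share of 54.8%, lay between, and the mixed null placebo library, with 2.81 and 48.7%, lay beside the placebo libraries. Exon lengths are those of the merged GENCODE models, so a share depends on which isoforms are used.

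**Figure D2:**
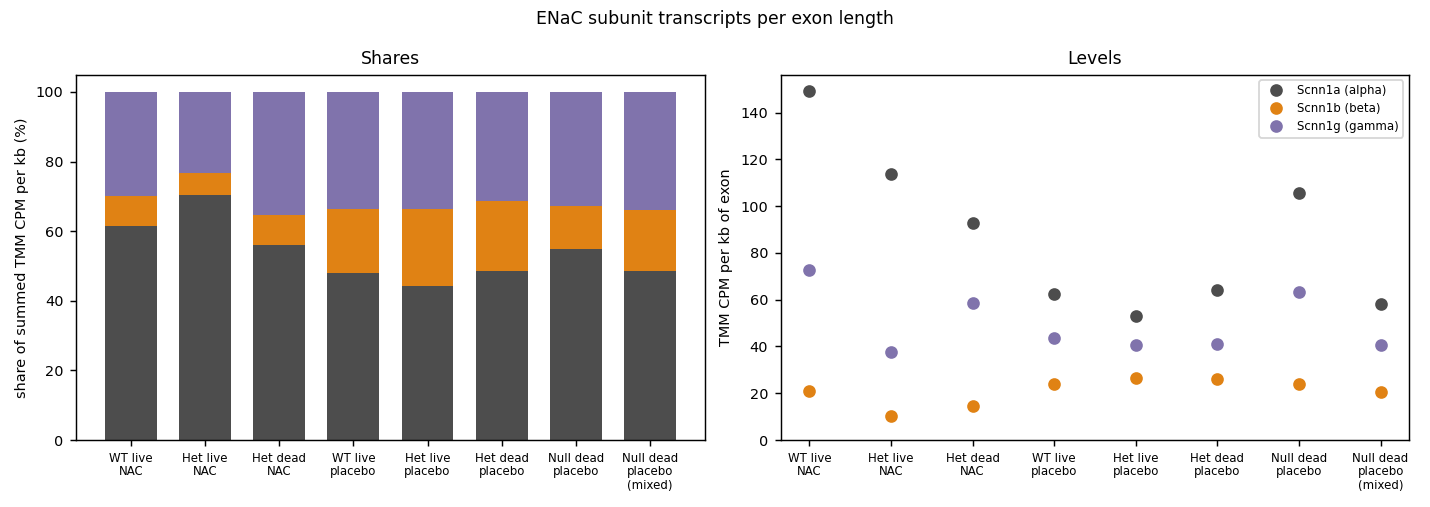
Share (left) and level in TMM CPM per kb of exon (right) of the 3 ENaC subunit transcripts in the 7 lung-content libraries and the mixed one. The beta share is 6.32% to 8.78% in the 3 NAC libraries and 12.3% to 22% in the 4 lung-content placebo libraries.

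Nedd4l, the ligase that tags ENaC for removal, had 159, 189 and 194 CPM with NAC and 93.4, 72.7 and 80.9 with placebo. It rose by 1.13 on the log2 scale (SE 0.16, adjusted p = 0.00311, edgeR), so an inhibitor of ENaC and 1 of its subunits rose together. At 201 CPM the null placebo library had the highest level among the lung-content libraries. Aqp1 had 1407, 1328 and 896 CPM with NAC and 677, 557 and 636 with placebo, a log2 difference of 0.93 (SE 0.17, adjusted p = 0.00652), and 1195 in the null placebo library. Without the live heterozygous pair it was 0.77, with an adjusted p of 0.0515 or 0.0557 depending on which of the 2 libraries was left out.

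Cftr had 11.3, 12 and 25.9 CPM with NAC and 29, 26.9 and 28.5 with placebo. The difference was larger in the live pairs than in the dead one: the NAC level was 0.389 times the placebo level in WT, 0.445 times in live heterozygous and 0.91 times in dead heterozygous pups. The fitted log2 difference was -0.87 (SE 0.25, adjusted p = 0.0324). It missed the threshold without the live WT pair (-0.62, adjusted p = 0.155) or without the live heterozygous pair (-0.73, adjusted p = 0.147). A test of whether the NAC difference itself differed between dead and live pups gave 1.32 for Cftr (SE 0.30, adjusted p = 0.372 by edgeR), so that this contrast did not pass; 1 of 13659 genes (0.00732%) did, and 0 of the 9 members.

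Slc12a2 had 244, 287 and 230.4 CPM with NAC and 191, 188 and 216 with placebo, higher in each pair but short of the threshold (log2 difference 0.35, SE 0.15, adjusted p = 0.113, edgeR). Aqp4 had 13.4, 5.15 and 18.5 CPM with NAC and 13.3, 9.97 and 12.5 with placebo. Its pairs went different ways, and the fitted difference was -0.06 (SE 0.28, adjusted p = 0.894).

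**Figure D3:**
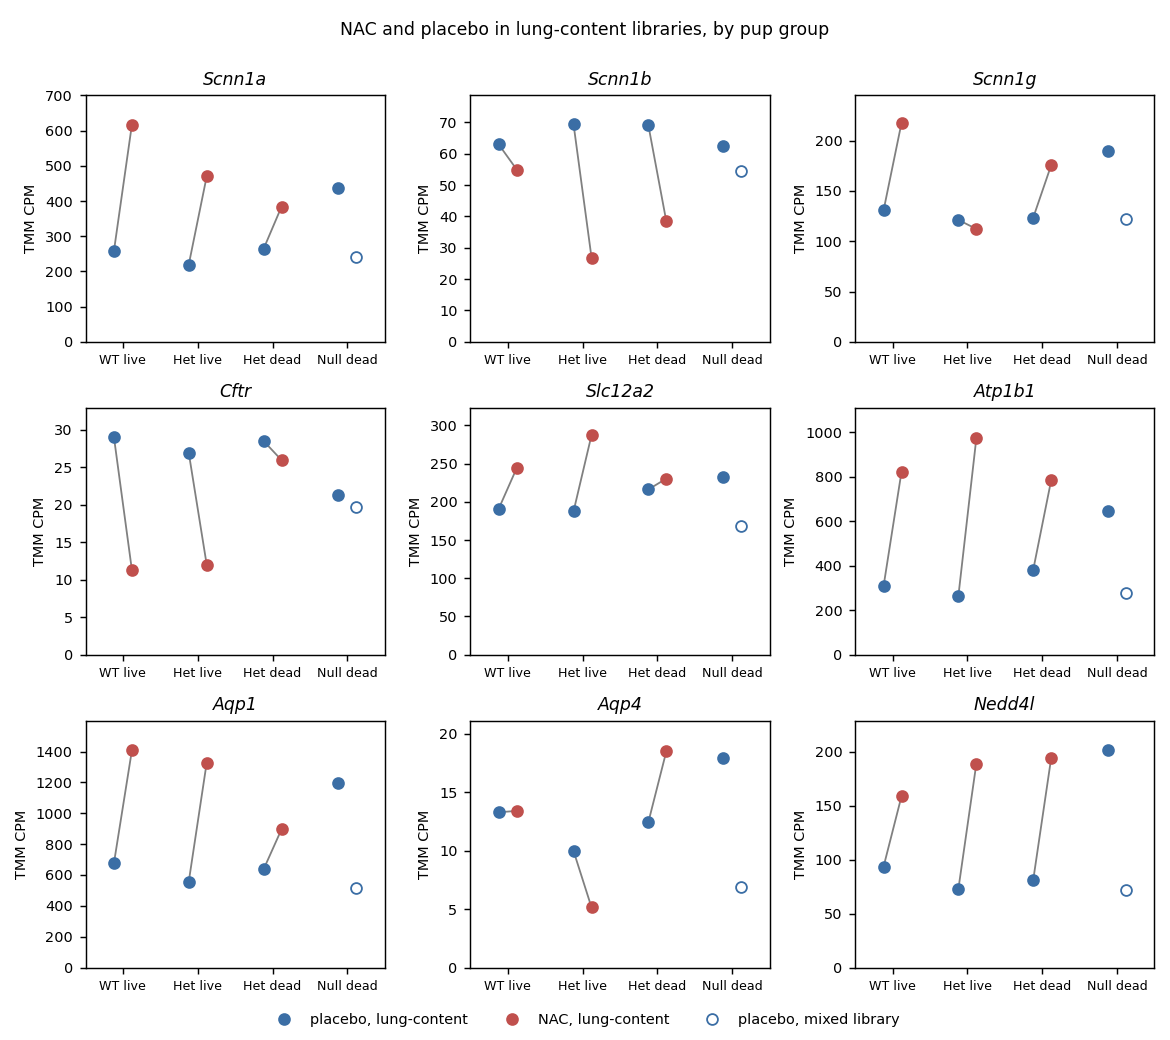
Level of each gene in TMM CPM (axis from 0) in the lung-content libraries by kind of pup, with lines joining placebo to NAC, 1 library per point, and the mixed null placebo library as an open circle. Lines for Atp1b1, Scnn1a, Aqp1 and Nedd4l rise in each of the 3 pairs, and the lung-content null placebo point for these genes lies well above the other placebo points.

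The null placebo library of lung content stood apart from the other placebo libraries. For Atp1b1, Scnn1a, Aqp1 and Nedd4l it was above the other 3 lung-content placebo libraries, while the mixed library of the same genotype and treatment lay within or below their range (279 CPM of Atp1b1, 241 of Scnn1a, 513 of Aqp1 and 71.5 of Nedd4l). Genotype, library and label cannot be told apart with 1 such library. When tissue label was added as a term, an alternative chosen after seeing the data, the same count of 6 members passed. In both live pairs the NAC library carries the lung label and the placebo library the liver label. The dead heterozygous pair alone separates label from NAC, so this fit cannot decide what part the label had. When survival replaced pup group in the fit, so that the null library entered as a placebo library of dead pups, only Atp1b1 passed (log2 difference 1.25, adjusted p = 0.028, edgeR), and 1897 genes did against 3601.

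Other genes of the same transport steps were read from 2 further lists. Of 36 other channels and pumps 26 were tested, and with NAC 6 rose and 3 fell (median log2 difference 0.22, beside -0.03 over all genes tested). Of all genes tested 14.4% rose and 11.9% fell. The pump regulator Fxyd5 rose by 0.73 (SE 0.14, adjusted p = 0.00863) and Aqp5, the water channel of alveolar type 1 cells, by 0.50 (SE 0.16, adjusted p = 0.0497). The apical chloride channels Ano1 and Slc26a9 fell by 0.82 (SE 0.17, adjusted p = 0.0109) and by 1.18 (SE 0.22, adjusted p = 0.00762), in the direction of Cftr. Asic1, an acid-gated sodium channel of the ENaC family, fell by 1.63 (SE 0.35, adjusted p = 0.013) from a level of 3.47 to 4.61 CPM with placebo in the 3 pairs. In the lung-content null placebo library Asic1 was at 1.34, Fxyd5 at 67.9 and Aqp5 at 174 CPM, within the range of the NAC libraries. Ano1 (82.2) was within that of the paired placebo libraries, and Slc26a9 (28.2) lay between. With scaling by library size alone none of the 6 passed as higher and 5 of the list fell, while leaving out either live heterozygous library left 0 higher and 1 lower, and leaving out either live WT library 2 or 3 higher and 2 lower.

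Of 34 regulators of sodium uptake 32 were tested, of which 12 rose and 1 fell (median log2 difference 0.08), where 14.4% of all genes tested rose and 11.9% fell. Prss22, a protease able to cleave ENaC, had 14, 26 and 31 counts with NAC and 5, 3 and 1 with placebo, a fitted log2 difference of 3.38 (SE 0.58, adjusted p = 0.00581) that rests on few counts. Hsd11b2, which inactivates glucocorticoid and so guards the mineralocorticoid receptor, fell by 2.71 (SE 0.51, adjusted p = 0.00787), with 6, 1 and 6 counts against 51, 37 and 30. Hsd11b1, which regenerates active glucocorticoid, rose by 1.12 (SE 0.14, adjusted p = 0.00186). Tsc22d3, a glucocorticoid target that raises ENaC at the surface, rose by 1.87 (SE 0.18, adjusted p = 0.000733), the deubiquitinase Usp2 by 1.75 (SE 0.27, adjusted p = 0.0038) and the purinergic receptor P2ry2 by 1.42 (SE 0.20, adjusted p = 0.00285). The lung-content null placebo library had 17 counts of Prss22, 5 of Hsd11b2 and 173 CPM of Hsd11b1, within the range of the NAC libraries. Its 247.5 CPM of Tsc22d3, 6.35 of Usp2 and 20.4 of P2ry2 lay between the NAC and the paired placebo libraries.

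The kinase Sgk1, which phosphorylates Nedd4l and so keeps ENaC at the membrane, had 289.5, 308 and 307 CPM with NAC and 91.8, 95.9 and 179 with placebo, a log2 difference of 1.37 (SE 0.20, adjusted p = 0.00311). The null placebo library had 96.9 CPM of Sgk1, level with live placebo pups, unlike its NAC-like level of Nedd4l. The steroid receptors, Nr3c1 for glucocorticoid (0.02, SE 0.15, adjusted p = 0.937) and Nr3c2 for mineralocorticoid (-0.37, SE 0.40, adjusted p = 0.519), did not pass. Of the list genes named for NAC, Prss22, Hsd11b2, Tsc22d3, Usp2, Asic1 and P2ry2 follow the naming rule, and the others were chosen after their values were seen. Scaling by library size alone left 9 higher and 5 lower in the regulator list.

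The glucocorticoid-responsive list was read because steroids are known to induce ENaC and pump subunits in lung epithelium. Of its 16 genes, 15 rose with NAC and 0 fell (median log2 difference 2.25), beside 14.4% and 11.9% of all genes tested. Sgk1 and Tsc22d3 are on this list as well as on the list of regulators. Fkbp5 rose by 2.96 (SE 0.22, adjusted p = 0.000242) and Per1 by 3.02 (SE 0.29, adjusted p = 0.000669). The list summed to 3182 to 3950 CPM in the NAC libraries, 658 to 1033 in placebo libraries of WT and heterozygous pups, 1963 in the lung-content null placebo library and 1052 in the mixed one. The count was 13 with library size alone and 14 or 15 when any 1 library was left out. Its part in the members' differences was not tested.

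Marker genes of the cells that carry these channels were read beside them. The counts below stand beside 14.4% of all genes tested that rose with NAC and 11.9% that fell. Alveolar type 1 markers summed to 2883 to 4138 CPM with NAC and 4535 to 5164 with placebo, without overlap, and 1 of the 10 rose (Aqp5) and 4 fell. Alveolar type 2 markers summed to 8703 to 16418 against 13210 to 14689, with 0 of 10 higher and 2 lower. By pair the type 2 sum was lower with NAC in live WT (8703 against 14689 CPM) and live heterozygous pups (8966 against 13622). It was higher in dead heterozygous pups (16418 against 13760). Of 11 hepatocyte markers tested 5 rose, at summed levels of 61.2 to 206 CPM against 21.8 to 199. The 8 lung endothelium markers, which bear on Aqp1, had overlapping sums (2023 to 2108 against 1777 to 2252 CPM), with 1 higher and 2 lower. Red cells also carry Aqp1: of 9 erythroid entries tested 4 rose and 0 fell. The erythroid sums, which took 1 entry for each of the 8 listed symbols found, were 7320 to 12249 CPM with NAC and 4753 to 11945 with placebo. They were higher with NAC in each of the 3 pairs. Of 6 bile duct markers, an epithelial list, 3 rose and 1 fell, of 4 liver sinusoid markers 2 rose and 1 fell, of 6 secretory airway markers 1 rose and 2 fell, and of 6 muscle markers none passed. The 7 multiciliated markers had 0 calls either way. Of the 5 markers of ionocytes, cells that are rich in Cftr, 1 was expressed enough to be tested. It was Atp6v0d2, a proton pump subunit, and it fell by 3.27 on the log2 scale (SE 0.48, adjusted p = 0.00333, edgeR), in the direction of Cftr. The 5 markers summed to 0.139 to 3.19 CPM with NAC and to 3.34 to 18.2 with placebo, the null library being the lowest of the latter. Atp6v0d2 alone ran from 0.139 to 18.0 CPM in lung-content libraries, and none of the others exceeded 0.891. The sums thus largely repeat that gene. Foxi1, which defines these cells, was at 0 in the 7 lung-content libraries, and these values do not show whether ionocytes were present. Whether cell composition had a part in the members' differences was not tested.

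Death and survival were compared over the same libraries, with treatment as a term. Of the 9 genes 0 passed, as did 0 of all 13659 genes (0%; 490 genes had an unadjusted p under 0.05, and DESeq2 called 19 genes, none a member). Log2 differences of the members ran from -0.04 for Scnn1b (SE 0.22) and 0.07 for Slc12a2 (SE 0.16) to 0.53 for Nedd4l (SE 0.30) and 0.61 for Aqp4 (SE 0.31), with an adjusted p of 0.999 for each in the edgeR fit. The largest among the other channels and regulators were Kcnn4 (1.30, SE 0.50), Aqp3 (1.12, SE 0.44) and Hsd11b1 (1.03, SE 0.28), each with an adjusted p of 0.999. Erythroid markers summed to 10353 to 12249 CPM in dead and 4753 to 8790 in live pups, and their part was not tested.

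Genotype was compared among pups of like survival. Dead pups were harvested when found, so age at harvest can differ between null and dead heterozygous pups. In that contrast age and genotype cannot be told apart. Between live heterozygous and live WT pups 0 genes passed (0%; 315 genes had an unadjusted p under 0.05, and DESeq2 called 6), and the members differed by -0.80 for Aqp4 (SE 0.34) to 0.11 for Slc12a2 (SE 0.18), with an adjusted p of 1 in edgeR. The values with the largest size among the other channels and regulators included Prss22 (1.04, SE 0.69) and Hsd11b1 (-0.52, SE 0.17). Between null and dead heterozygous pups 82 genes passed (0.6%) and 0 members did, and this contrast rests on the 1 null library of lung content.

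In that contrast Nedd4l was 1.25 higher in null pups (SE 0.25, adjusted p = 0.075), Aqp1 1.11 (SE 0.25, adjusted p = 0.109), Atp1b1 0.95 (SE 0.26, adjusted p = 0.178) and Scnn1a 0.92 (SE 0.25, adjusted p = 0.176), all by edgeR. Leaving out the dead heterozygous placebo library brought 4 members past the threshold among 678 genes, and scaling by library size alone or adding the mixed null library left 0 genes. Prss22 (3.09, SE 0.86), Hsd11b2 (-2.31, SE 0.85) and Aqp3 (-1.53, SE 0.65) had the largest values among other channels and regulators without passing. Of the 16 glucocorticoid-responsive genes 5 were higher, Fkbp5 among them (2.11, adjusted p = 0.0325).

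**Figure D4:**
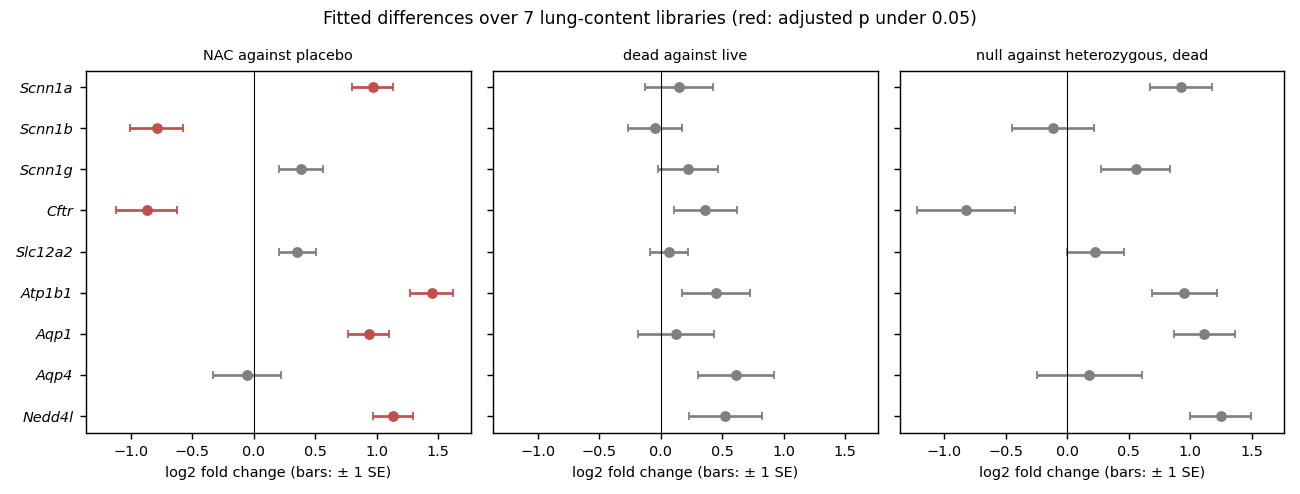
Fitted log2 differences of the 9 genes over the 7 lung-content libraries (points, bars ± 1 SE; red where the edgeR adjusted p is under 0.05) for NAC against placebo, dead against live and null against heterozygous dead pups. The 6 red points, from -0.87 for Cftr to 1.45 for Atp1b1, are all in the NAC comparison, and the null comparison has no red point.

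Whether the NAC difference depended on survival was tested as an interaction in the lung-content libraries. Values for Scnn1a (-1.05, SE 0.44), Atp1b1 (-1.04, SE 0.44) and Aqp1 (-1.18, SE 0.49) were below 0, with adjusted p-values of 0.434, 0.439 and 0.433 in the edgeR fit, and the placebo arm of dead pups in this contrast includes the null library. Leaving that library out gave -0.65 for Aqp1. The largest values among the other channels and regulators were Aqp3 (1.71, SE 0.74), Stk39 (-1.67, SE 0.54) and Prss22 (-1.59, SE 1.59), and none passed.

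In liver-content libraries 6 of the 9 genes passed the filter on low values, Scnn1b, Scnn1g and Cftr being below it. With NAC, 0 of these 6 and 0 of 13290 genes passed (0%; 653 had an unadjusted p under 0.05, and DESeq2 called 30). Scnn1a had 7.50, 5.99 and 5.03 CPM with NAC in live WT, live heterozygous and dead heterozygous pups and 3.34, 2.72 and 4.38 with placebo, a log2 difference of 0.83 (SE 0.33, adjusted p = 0.942 by edgeR). Aqp4 differed by -1.28 with an SE of 1.21. The other channels and regulators with the largest values included Kcne3 (1.51, SE 0.78) and Aqp8 (1.29, SE 0.82).

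Between dead and live pups in liver-content libraries 0 of 13290 genes passed (0%; 678 had an unadjusted p under 0.05, and DESeq2 called 45). Aqp1 (0.48, SE 0.20), Atp1b1 (0.37, SE 0.16) and Nedd4l (0.59, SE 0.29) had an adjusted p of 0.805 in edgeR. Sgk1 (2.59, SE 0.51) and the protease Tmprss2 (1.62, SE 0.32) had 0.449, and Nr3c2 (-1.27, SE 0.66) 0.805.

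By label instead of content, each of the 8 NAC and placebo pairs set a lung-content or mixed library against a liver-content one, and the members followed content. In the live WT and live heterozygous pairs labelled lung and the dead heterozygous pair labelled liver, where the NAC library was lung-content, 8 members were at least 2-fold higher with NAC, where 25%, 26.8% and 23.5% of genes were. In the live heterozygous pair labelled lung 1 member, Aqp4, was at least 2-fold lower, where 30.2% of genes were. In the other 5 pairs 7 or 8 members were at least 2-fold lower and 0 higher. Of all genes, 22.5% were lower in the live heterozygous pair labelled liver, 22.4% in the live WT pair labelled liver, 23.1% in the dead heterozygous pair labelled lung, and 21.8% and 24.4% in the null pairs labelled lung and liver. Scnn1a, for example, was 6.99 higher on the log2(CPM + 1) scale with NAC in the live heterozygous pair labelled lung, and differed by -4.98 in the pair labelled liver. A pair has 1 library per arm, so these values have no replicate check.

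Genes whose levels across the 7 lung-content libraries lay nearest to those of the channels were found by the root mean square difference of log2(CPM + 1), each centred on its own mean, among 8889 genes of at least 10 CPM. Nearest to Scnn1a were Eln (elastin, 0.091), Slc25a38 (0.094) and Syde2 (0.098), where the median over genes was 0.51. Nearest to Scnn1b were Fam69a (0.096), Pomt2 (0.098) and Tubgcp4 (0.10), to Scnn1g Vldlr (0.081), Nkd1 (0.099) and the type 1 cell gene Hopx (0.099), and to Cftr P2rx4 (0.14), Ppp1r9a (0.14) and Dpp4 (0.15). The 7 libraries share one scaling but differ in depth and in the number of pooled experiments, and the values are given as a description.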

How the data were processed

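PolyA RNA of lung and liver was sequenced in 16 libraries after a stranded library preparation. The authors trimmed adapters, aligned reads to the Ensembl mouse genome (GRCm38; mm10 per the labels) with the Omicsoft Sequence Aligner and deposited an estimated count of uniquely mapped reads per gene symbol, not normalized; the submitters' processing notes name edgeR 3.30.3 and R 4.0.3. Pooling before sequencing removes the spread between experiments from the data. The annotation release and the use of strand are not given in the sources used here.

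Estimated counts, of which 6.5% to 8.24% per library were not whole, were rounded to whole numbers. Libraries were grouped by label for genotype, survival and treatment, and by Sftpc and Alb for content. Scaling was TMM over the 16 libraries, genes needed a mean of 1 CPM over the fitted libraries, and tests were edgeR 4.0.16 quasi-likelihood tests (R 4.3.3) with Benjamini-Hochberg adjustment over all genes tested, a threshold of 0.05 and a prior count of 0.125. The fit of NAC against placebo had pup group as a block and 2 residual degrees of freedom. The exact test of the study's methods with an assumed coefficient of variation of 0.2 stands in as an alternative with the dispersion fixed at 0.04. Other alternatives were DESeq2 1.42.0, other scalings, filters and covariates, and leaving out each library. In simulated counts where 200 genes were set to differ 4-fold, the NAC step over lung-content libraries recovered 192 and called 18 others among 13659 genes, and the dead against live step 179 and 17. The simulation held no differences between kinds of pup and changed fewer genes than the NAC fit called. The largest fitted NAC change of a member was 2.73-fold, so the recovery does not carry over to the members. A count at or under 3 was treated as the floor.

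The members, gene lists and tests were chosen with earlier results of these data known. Named genes are the 9 members, and in each comparison up to 6 genes of the 2 transport lists that passed with the largest change, or the 3 largest where none passed; some genes that this rule names are not reported here. Gene positions are those of GENCODE on GRCm38 and promoters from RefSeq (GRCm38.p6). Python 3.11.15 drew the figures. The authors' own comparisons, survival, histology and protein data were not used here.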

Additional observations from a re-analysis of the deposited data

Results flagged for a closer look

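Within groups of 4 to 8 libraries, 63 sets of values of the 9 genes were searched for a library standing apart by Dixon's gap ratio, and 5 did. Chance gives about 1 in 20 for separate sets. These sets share libraries, so that rate does not hold for them. Among the 4 lung-content placebo libraries the null library was highest for Scnn1g, at 189.5 CPM with the next at 131 (gap 0.863 of the range), and for Nedd4l, at 201 CPM with the next at 93.4 (gap 0.839). Among the 4 liver-content libraries of dead pups the null NAC library labelled liver was highest for Aqp4, at 15.9 CPM with the next at 1.26 (gap 0.954). Among all 8 liver-content libraries the dead heterozygous NAC library was highest for Scnn1b, at 0.335 CPM, which is 4 counts, with the next at 0.198 (gap 0.536). The dead heterozygous placebo library was highest for Aqp1 there, at 512 CPM with the next at 372 (gap 0.535).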

How the results depend on the processing

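The 6 calls among the members for NAC against placebo in lung-content libraries kept their direction in the 17 alternatives run. Treating survival and not pup group as the covariate (no replicate block) gave 1897 genes, with Scnn1a at an adjusted p of 0.0829, Scnn1b at 0.0602, Cftr at 0.101, Aqp1 at 0.14 and Nedd4l at 0.0885 by edgeR; leaving out 1 library gave 1040 to 4182 genes, and Slc12a2 passed without either dead heterozygous library. The label numbers do not pair libraries, since each group holds 1, and the block is the pup group. Without a filter the counts were 1 for dead against live in lung, 12 for heterozygous against WT, 286 for null against heterozygous, 84 for the interaction and 1 for dead against live in liver. DESeq2 gave 19, 6, 218, 67 and 45 for these and 30 for NAC in liver. A dispersion fixed at 0.04 gave 235, 64, 462, 285, 955 and 690. For null against heterozygous pups, relative log expression factors gave 44, library size alone 0 and the mixed library 0; for the interaction library size alone gave 91. Leaving out 1 library gave 0 to 26 genes for heterozygous against WT, 87 to 678 for null against heterozygous, 0 to 184 for the interaction, 0 to 10 for dead against live and 0 to 4 for NAC in liver. The causes were not tested.

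Directions changed only for values that had not passed. With library size alone, Slc12a2 became -0.00020 (dead against live), -0.21 (heterozygous against WT) and -0.081 (null against heterozygous), Atp1b1 -0.30 (heterozygous against WT), Aqp4 -0.16 (null against heterozygous), and Scnn1b 0.24 and Scnn1g 0.14 (interaction). Without a treatment term, dead against live became -0.11 for Scnn1a, 0.078 for Scnn1b, -0.13 for Aqp1 and -0.0077 for Slc12a2. The mixed library took Aqp4 to -0.37 (null against heterozygous), and the tissue label took it to 0.088 (NAC in lung), where 4171 genes passed. Leaving out 1 library, dead against live in lung ran from -0.17 to 0.60 for Cftr, -0.17 to 0.16 for Scnn1b, -0.17 to 0.55 for Scnn1a, -0.27 to 0.57 for Aqp1 and -0.0023 to 0.24 for Slc12a2. NAC in lung ran from -0.40 to 0.29 for Aqp4. Heterozygous against WT ran from -0.34 to 0.40 for Cftr, -0.32 to 0.33 for Atp1b1, -0.092 to 0.30 for Slc12a2, -0.89 to 0.019 for Scnn1b, -0.43 to 0.050 for Aqp1 and -0.33 to 0.22 for Nedd4l. Null against heterozygous ran from -0.27 to 0.010 for Scnn1b and -0.44 to 0.52 for Aqp4. The interaction ran from -0.51 to 0.52 for Scnn1b, -0.62 to 0.33 for Scnn1g and -1.12 to 0.20 for Nedd4l. In liver, Aqp4 ran from -2.67 to 0.73 (dead against live), and Aqp1 from -0.35 to 0.00018 and Slc12a2 from -0.41 to 0.018 (NAC). With 1 pooled library per group and 7 lung-content libraries, small differences of these genes were not detectable.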
